A study of Mus musculus with 24 samples.

Results

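The comparison described here is that of the cerebral cortex of male mouse neonates whose dams breathed nPM, the nano-sized fraction of particulate matter of ambient air, with the cortex of male neonates whose dams breathed filtered air. It rests on 6 of the 24 libraries of the series. Libraries V13, V15 and V23 came from nPM-exposed males and V14, V16 and V24 from unexposed males. A gene was kept where each of the 6 libraries held 10 or more counts, which left 17088 of 48709 genes. The pregnant dams were exposed on 3 days of each week, for 5 h a day, from gestational day 2 in the sample labels, and the exposure ended at birth. The sample labels give the dose as 300 mg/m3, the strain as C57BL/6J and the age at collection as 3 to 5 days. The methods text of the study writes the dose in μg/m3, names the strain C57BL/6NJ and gives an age of 5 days. The labels name no transgene or deletion in any group. The pups were sexed by anatomy and by PCR for a Y gene, and pups of one sex and exposure were taken from different litters.

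The neonatal cortex of the mouse is still being built. Its excitatory neurons have reached their layers, while inhibitory interneurons that were born in the ventral forebrain are arriving and settling, and axons and synapses are forming. Prenatal exposure to airborne particles has been studied as a risk for neurodevelopment, and male and female offspring often differ in their later behaviour. Ambient particles can carry polycyclic aromatic hydrocarbons, which bind the aryl hydrocarbon receptor, and metals that cause oxidative stress, to which cells respond through the transcription factor NRF2.

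The 6 libraries held 28202344 to 33804371 counts on genes, with V15 the deepest and V14 the shallowest. RNA integrity numbers (RIN) were 9.4, 9.4 and 9.6 after nPM and 9.5, 9.7 and 9.5 in controls. In each group 2 libraries were run on lane 2 and 1 on lane 3. No pair of libraries was a copy of another, with a chi-square per gene of 9.96 to 28.5, where sampling alone gives 1. All levels below are in CPM, counts scaled to the library size, and those of single genes are also scaled by the TMM factors. The Y gene Ddx3y lay at 82.5 to 98.7 CPM in all 6. Markers of cortical excitatory neurons were present in every library, with Neurod6 at 160 to 196 CPM and Slc17a7, the vesicular glutamate transporter of cortex, at 320 to 582 CPM. V14 stood apart by low levels of tissue next to the cortex: the summed level of 18 striatal genes was 375 CPM in V14 and 631 to 792 CPM in the other 5, and that of 15 choroid plexus genes was 145 CPM against 381 to 582 CPM. V24 stood apart by 20 oligodendrocyte genes, at 1208 CPM against 647 to 865 CPM in the other 5. Bulk tissue cannot tell fewer cells of a type from less RNA per cell.

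No gene changed in male cortex by the adjusted cutoff. The smallest adjusted p was 0.944 (edgeR's quasi-likelihood test with RIN in the model, Benjamini-Hochberg adjustment over all 17088 genes), and every gene named below had an adjusted p of 0.944 or higher. At the unadjusted cutoff of 0.005, 41 genes passed, which is 0.24% of the genes tested, where 85.44 would pass if no gene responded. Of these 25 were higher after nPM (0.146% of genes tested) and 16 lower (0.0936%). At an unadjusted p under 0.05 there were 739 genes (4.32%), 419 higher (2.45%) and 320 lower (1.87%). Among the 41 genes, 30 were protein-coding, 20 of them higher and 10 lower, and 22 had a log2 fold change smaller than 0.5 in size. Limma voom placed 34 of the 41 and DESeq2 36 of the 41 past the same cutoff. The gene just inside the cutoff was Sstr1 (unadjusted edgeR p of 0.00485) and the gene just outside was Abi3bp (unadjusted edgeR p of 0.00502).

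The groups of 3 did not overlap for 29 of the 41 genes, 18 higher and 11 lower after nPM. Over all genes tested the groups did not overlap for 1510 (8.84%), 731 higher (4.28%) and 779 lower (4.56%). The 41 genes were chosen for this contrast, so their count is a description. A two-sided exact permutation test of 3 against 3 libraries cannot give a p under 0.1, and 0.1 was its value for each gene whose groups did not overlap. The term rose or fell is therefore not used for single genes of the males. Library V23 carried much of the list: among the nPM libraries it lay farthest from the control mean for 33 of the 41 genes, and without it 6 of the 41 passed the cutoff (Gm12070, Pxdn, Tex15, Gm26461, Trbc2 and Gm26315), while 67 genes passed in all.

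**Figure D1:**
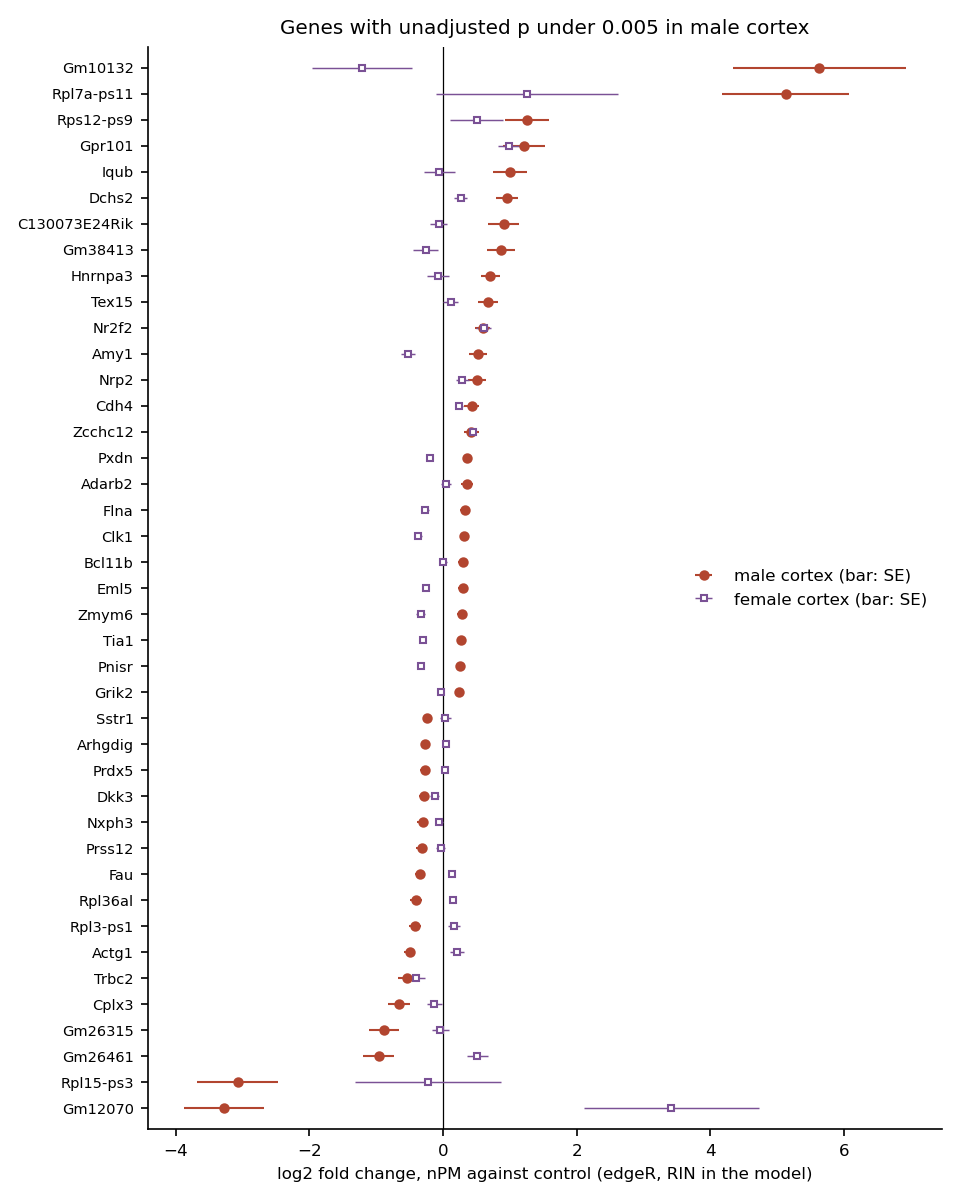
Log2 fold change after nPM (horizontal axis) of the 41 genes with an unadjusted p under 0.005 in male cortex, with the female value of the same gene beside it; bars are standard errors from edgeR. Processed pseudogenes take the ends of the axis, most protein-coding genes lie within 1 log2 unit of 0, and the female value has the male sign for 18 of the 41.

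Transcription factors of the forebrain were among the higher genes. Nr2f2 (ENSMUSG00000030551.14, chromosome 7 of mm10, 70351944 to 70366735) encodes COUP-TFII, a nuclear receptor of interneurons from the caudal ganglionic eminence and of ventral forebrain. Its level was 19.7, 21.03 and 25.4 CPM in V13, V15 and V23 and 15.4, 15.01 and 15.3 CPM in V14, V16 and V24. The controls lay close together and every nPM library was above them, V23 farthest. Its log2 fold change of 0.60 had an SE of 0.11 and an unadjusted edgeR p of 0.000663. It was 0.39 without V23 (unadjusted edgeR p of 0.0417), and Nr2f2 overlaps the gene B130024G19Rik.

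Bcl11b, which encodes CTIP2, a zinc-finger factor of deep-layer projection neurons and of striatal neurons, was at 95.6, 101 and 107 CPM after nPM and 77.9, 94.2 and 88.1 CPM in controls. The groups did not overlap, with V14 lowest, and the log2 fold change was 0.30 (SE 0.07). Zcchc12, an X-linked zinc-finger coactivator of neurons, was at 82.7, 104 and 85.2 CPM after nPM and 60.8, 64.4 and 71.0 CPM in controls, with a log2 fold change of 0.43 (SE 0.11). Here V15 rather than V23 was highest, and the value without RIN in the model was 0.47. Adarb2, a brain protein of the RNA-editing enzyme family and a marker of caudal interneurons, was at 28.3, 32.4 and 32.6 CPM after nPM and 24.7, 26.2 and 24.4 CPM in controls, again without overlap (log2 fold change 0.36, SE 0.09).

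Receptors and adhesion molecules were found among the higher genes, and the receptor Sstr1 among the lower ones. Gpr101, an X-linked orphan G protein-coupled receptor of hypothalamus and amygdala, was at 5.63, 4.797 and 4.18 CPM after nPM and 1.19, 1.80 and 2.73 CPM in controls. These levels rest on 33 to 171 counts per library. The groups did not overlap and its log2 fold change of 1.21 (SE 0.32) was the largest of the protein-coding genes past the cutoff. It was 1.68 with V24 left out and 0.83 without V14. Nrp2, a receptor of semaphorins in axon guidance, was at 65.5, 78.5 and 72.6 CPM after nPM and 42.7, 49.9 and 58.8 CPM in controls (log2 fold change 0.51, SE 0.13). Every nPM library exceeded every control, and V14 was the lowest of the 6.

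Grik2, a kainate receptor subunit, was at 113, 112 and 114 CPM after nPM and 96.9, 103 and 93.3 CPM in controls (log2 fold change 0.25, SE 0.06). The 3 nPM libraries were nearly the same and the groups did not overlap. Cdh4, a cadherin of axons, was at 32.1, 40.3 and 45.6 CPM after nPM and 31.3, 31.8 and 30.2 CPM in controls (log2 fold change 0.43, SE 0.11), so that V13 lay close to the controls and V23 far above them. Without V23 its log2 fold change was 0.26 and its unadjusted edgeR p 0.15. Dchs2, a large protocadherin-like protein of planar polarity, was at 10.04, 12.2 and 13.7 CPM after nPM and 5.35, 8.06 and 7.23 CPM in controls, and its log2 fold change was 0.96 with an SE of 0.17. With 1 library left out at a time, Dchs2 passed in 5 of 6 cases, all but that without V23.

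Pxdn encodes peroxidasin, which cross-links collagen in basement membranes, and was at 58.5, 60.2 and 64.8 CPM after nPM and 47.0, 56.4 and 49.1 CPM in controls (log2 fold change 0.36, SE 0.07). Of the 30 protein-coding genes it alone passed the cutoff with each library left out in turn. Flna, the actin cross-linker filamin A, was at 246, 247 and 298 CPM after nPM and 227, 279 and 201 CPM in controls. Its groups overlapped, its difference was -0.03 in lane 2 and 0.57 in lane 3 on the log2 scale, and without RIN its unadjusted edgeR p was 0.204. Tex15, known for its role in the male germline, was at 18.03, 20.1 and 18.7 CPM after nPM and 10.7, 16.1 and 12.2 CPM in controls (log2 fold change 0.67, SE 0.15).

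Clk1 (ENSMUSG00000026034.17, chromosome 1, 58410189 to 58424066) encodes a kinase that phosphorylates SR splicing proteins and is known for retained introns. It was at 107, 109 and 115 CPM after nPM and 89.0, 98.4 and 90.2 CPM in controls with no overlap, and its log2 fold change was 0.31 (SE 0.06). Pnisr, a nuclear protein rich in serine and arginine, was at 125, 124 and 153 CPM after nPM and 116, 135 and 117 CPM in controls, and the groups overlapped. Tia1, an RNA-binding protein of stress granules, was at 122.95, 126 and 139 CPM after nPM and 114, 125 and 103 CPM in controls, with overlap as well. Genes of the annotation class TEC, which awaits experimental evidence, took 0.296, 0.264 and 0.363% of counts after nPM and 0.338, 0.301 and 0.224% in controls, and their part in these 3 genes was not tested. Hnrnpa3, an hnRNP with several processed copies in the genome, was at 95.2, 83.8 and 153 CPM after nPM and 78.0, 80.1 and 72.0 CPM in controls, and its log2 fold change was 0.71, and 0.30 without V23. The remaining protein-coding genes higher after nPM were Eml5, Zmym6, Iqub and Amy1, with log2 fold changes of 0.30, 0.29, 1.00 and 0.52.

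Among the lower genes, Actg1, which encodes cytoplasmic gamma-actin, had the smallest p of all (log2 fold change -0.50 ± 0.09 SE, edgeR p of 0.000353 before adjustment). Its level was 1259, 1207 and 871 CPM after nPM and 1559, 1117 and 1350 CPM in controls. The groups overlapped, since control V16 lay below V13 and V15, and without RIN in the model the log2 fold change was -0.27 with an unadjusted edgeR p of 0.104. Reads of processed actin pseudogenes could be shared with it. Arhgdig was at 122, 124 and 114 CPM after nPM and 144, 133 and 140 CPM in controls (log2 fold change -0.26, SE 0.06), without overlap. Arhgdig overlaps Pdia2 and Rgs11.

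Nxph3, a neurexophilin that binds neurexins, was at 34.3, 34.6 and 29.99 CPM after nPM and 39.7, 39.4 and 38.9 CPM in controls (log2 fold change -0.31, SE 0.08). Cplx3, a complexin of vesicle release, was at 15.4, 14.6 and 9.77 CPM after nPM and 15.8, 15.6 and 21.8 CPM in controls (log2 fold change -0.66, SE 0.16). For Nxph3 the 3 controls were close together and apart from nPM, with a log2 fold change of -0.19 without V23, whereas for Cplx3 the difference was -0.07 in lane 2 and -1.12 in lane 3, between V23 and V24. Prss12, the synaptic protease neurotrypsin, was at 30.9, 34.7 and 32.9 CPM after nPM and 41.4, 36.8 and 41.4 CPM in controls (log2 fold change -0.32, SE 0.08). Dkk3, a secreted protein of the Dickkopf family, had a log2 fold change of -0.29 (SE 0.07), and the somatostatin receptor Sstr1 one of -0.24 (SE 0.06), both without overlap. Prdx5, a peroxiredoxin that removes peroxides, was at 125, 125 and 111 CPM after nPM and 136, 125 and 149 CPM in controls. Its groups were separated by less than 1 CPM (124.6 CPM in V15 and 125.0 CPM in V16).

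The ribosomal protein genes Fau and Rpl36al were lower. Fau (ENSMUSG00000038274.11, chromosome 19, 6057888 to 6059524) encodes a ubiquitin-like protein fused to ribosomal protein S30. It was at 139, 150 and 132 CPM after nPM and 168, 177 and 178 CPM in controls, with a log2 fold change of -0.34 (SE 0.07). Rpl36al was at 70.3, 73.8 and 50.9 CPM after nPM and 79.8, 71.2 and 77.8 CPM in controls, and the groups overlapped. Its log2 fold change was -0.41, and -0.20 without V23. Both have processed copies, so their counts are uncertain to the extent that reads were shared.

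Of the 41 genes 11 were not protein-coding, and 6 of them were processed pseudogenes, which is 1.03% of the 582 processed pseudogenes tested, against 0.211% of the 14217 protein-coding genes. Their levels differed greatly between libraries of one group. Gm10132 had 19, 1418 and 1012 counts in V13, V15 and V23 and 17, 23 and 15 counts in controls, so that 2 of the 3 nPM libraries stood far above the other 4. Rpl7a-ps11 had 46, 1171 and 3192 counts after nPM and 42, 188 and 37 in controls. Gm12070 went the other way, with 148, 155 and 66 counts after nPM and 1372, 140 and 361 in controls, and its log2 fold change of -3.27 (SE 0.60) was -1.78 without V14. Rpl15-ps3 had 115, 64 and 37 counts after nPM and 706, 441 and 210 in controls, without overlap. Gm10132 lies within Enox1, and processed pseudogenes are copies of expressed genes with which they can share reads, so the counts of these loci are uncertain. Among the mitochondrial genes mt-Co2, a subunit of cytochrome oxidase with nuclear copies, behaved alike, at 31.6, 518 and 788 CPM after nPM and 67.4, 71.1 and 47.6 CPM in controls (unadjusted edgeR p of 0.00528).

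Both misc_RNA genes past the cutoff, of 16 tested, were lower. Gm26461 was at 15.1, 21.6 and 23.8 CPM after nPM and 33.7, 33.3 and 51.1 CPM in controls (log2 fold change -0.96, SE 0.23). Gm26315 was at 8.72, 12.4 and 13.1 CPM after nPM and 17.9, 18.1 and 27.1 CPM in controls (log2 fold change -0.88, SE 0.23). Neither overlapped between groups. Both were past the cutoff without V23 and not without V24, the control library with the highest level, where the log2 fold changes were -0.62 for Gm26461 and -0.55 for Gm26315. They overlap Zfp949 and Celf2, and the strandedness of the libraries is not given in the sources used here. The lincRNA genes Gm38413 and C130073E24Rik were higher, with log2 fold changes of 0.87 and 0.91, and the T cell receptor segment Trbc2 lower, at -0.54.

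The study asked whether neonates of the 2 sexes respond alike. The female cortex gave the same contrast in other pups, in 3 nPM libraries (V9, V11 and V20) and 3 control libraries (V10, V12 and V19). The labels give no litter, so whether male and female pups of one exposure shared dams is not known. The female contrast is therefore not shown to be independent of the male one. In females 775 of 16970 genes had an unadjusted p under 0.005 (4.57%), 209 higher (1.23%) and 566 lower (3.34%), and 235 passed the adjusted cutoff (1.38%). These counts depend on the fit. With all 12 cortex libraries in 1 edgeR fit of 17086 genes, 386 passed 0.005 in females and 53 in males, and 0 passed the adjusted cutoff in either sex. The female p-values below are those of the fit of females alone. The typical size of change was alike, with a median log2 fold change of 0.0969 in size in males and 0.0995 in females. The spread was wider in males, with a common biological coefficient of variation of 0.114 against 0.0858 and a median SE of 0.128 against 0.0920. Of the 234 adjusted female genes that were kept in males, 9 had a male p under 0.005 and 40 under 0.05. Over all genes tested in males, 0.24% and 4.32% were under these cutoffs. Of the 9, Nr2f2, Zcchc12 and Gpr101 had the same sign in both sexes. Clk1, Pnisr, Eml5, Tia1, Zmym6 and Amy1 had opposite signs.

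Past the unadjusted cutoff in both sexes were 12 genes, which is 29.3% of the male and 1.55% of the female list. Nr2f2, Zcchc12, Cdh4 and Gpr101 were higher in both. Nr2f2 was at 21.01, 25.4 and 27.5 CPM in nPM females and 16.3, 14.8 and 17.5 CPM in control females (log2 fold change 0.61, SE 0.11, adjusted edgeR p of 0.0286), and Gpr101 was at 6.12, 3.91 and 6.79 CPM and 3.55, 2.48 and 2.91 CPM (log2 fold change 0.99, SE 0.17, adjusted edgeR p of 0.0208). For Nr2f2 and Gpr101 the groups did not overlap in either sex, while those of Zcchc12 and Cdh4 overlapped in females. The male minus female difference of log2 fold changes was -0.06 (SE 0.17) for Nr2f2 and 0.21 (SE 0.34) for Gpr101. Ephb6, an ephrin receptor, was outside the male cutoff at 129, 115 and 124 CPM after nPM and 144, 147 and 147 CPM in controls (log2 fold change -0.24 ± 0.07 SE, edgeR p of 0.00779 before adjustment), and its female log2 fold change was -0.25.

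The other 8 shared genes, Clk1, Pxdn, Flna, Pnisr, Eml5, Tia1, Zmym6 and Amy1, were higher in nPM males and lower in nPM females. Without RIN 5 genes passed in both sexes, 3 of them in the same direction, and the male edgeR p before adjustment was 0.204 for Flna and 0.212 for Pnisr. Clk1 in females was at 108, 94.0 and 99.4 CPM after nPM and 134, 135 and 124 CPM in controls, and its female log2 fold change was -0.37 (SE 0.06) at an adjusted edgeR p of 0.0170. The levels of males and females were scaled separately, so they are compared only within a sex. Amy1, an amylase gene, was at 9.48, 10.4 and 11.2 CPM in nPM males and 7.27, 7.49 and 7.63 CPM in control males. In females it was at 8.59, 8.67 and 10.7 CPM after nPM and 13.6, 13.5 and 13.7 CPM in controls, a log2 fold change of -0.53 against 0.52 in males. Amy1 overlaps Rnpc3, whose male minus female difference was 0.62 (SE 0.12), and reads of the pair could be shared. TEC genes took 0.286, 0.273 and 0.294% of counts in nPM females and 0.406, 0.369 and 0.378% in control females, and their part in these differences was not tested.

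**Figure D2:**
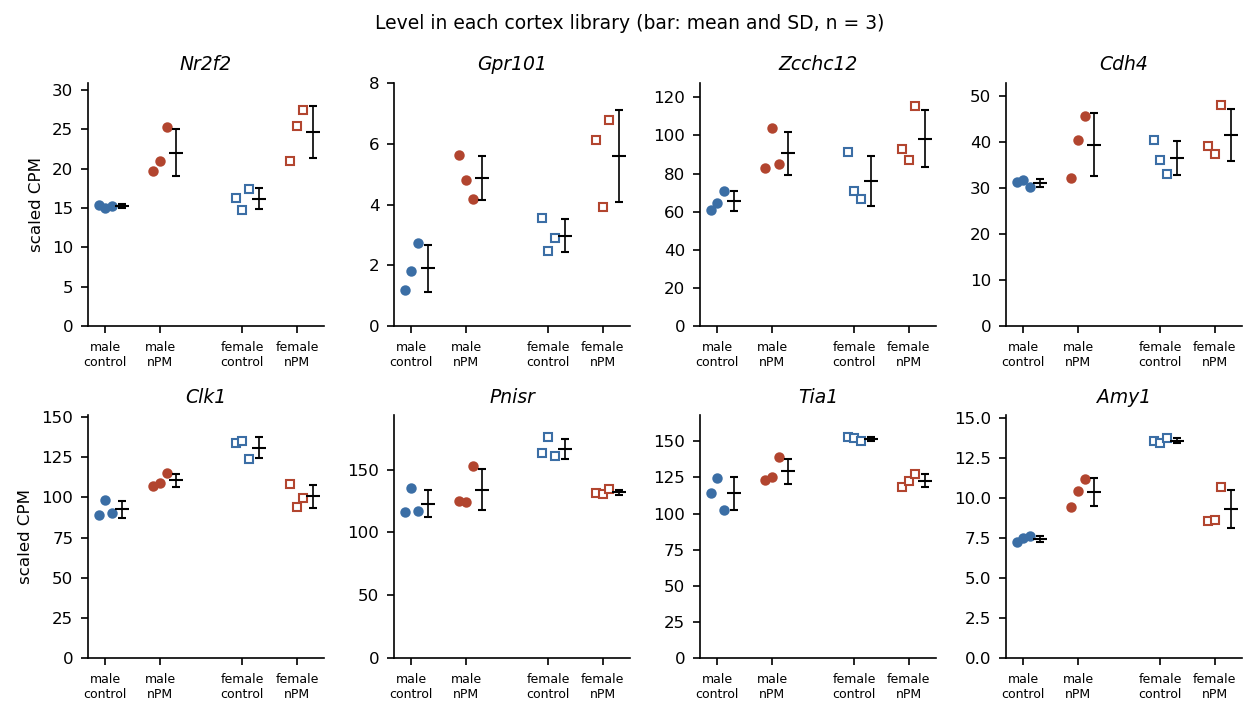
Level of 8 genes in each cortex library (vertical axis, CPM scaled by TMM factors within each sex, starting at 0), by sex and exposure, with the mean and SD of 3 libraries beside the points. In the upper row the nPM mean is above the control mean in both sexes, with overlap in females for Zcchc12 and Cdh4. In the lower row the nPM mean is higher in males, and every nPM female lies below every control female.

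The exposure-by-sex term tests this difference directly. Of 17086 genes 245 had an unadjusted p under 0.005 (1.43%), 145 with a higher effect in males (0.849%) and 100 with a lower one (0.585%), and 0 passed the adjusted cutoff with edgeR (1740 at an unadjusted p under 0.05, and 64 adjusted with DESeq2). The smallest adjusted p was 0.133, for Clk1 (difference 0.63, SE 0.10) and Ttc14 (0.68, SE 0.10), followed by Amy1 (1.00, SE 0.16, adjusted edgeR p of 0.163), Fau (-0.46, SE 0.08) and Luc7l3, a splicing factor gene (0.51, SE 0.10), both with an adjusted edgeR p of 0.275. Ttc14 was at 115, 112 and 134 CPM in nPM males and 110, 116 and 102 CPM in control males, with overlap. In females it was at 119, 107 and 114 CPM after nPM and 154, 164 and 163 CPM in controls. Luc7l3 also overlapped in males, at 163, 157 and 174 CPM after nPM and 149, 160 and 138 CPM in controls, and not in females, at 167, 151 and 152 CPM and 191, 207 and 192 CPM. Among the 41 male genes, 13 had an unadjusted p under 0.005 for this term and 24 under 0.05 (10.2% of all genes tested for it). These genes were chosen by the male contrast, which is part of this term, so the count is not independent of the choice.

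Across the 16660 genes kept in both sexes the sign of change was the same for 43.6%, with a Spearman correlation across genes of -0.14 (Pearson -0.15). Genes are not independent replicates, and the values of 1 sex share 3 nPM and 3 control libraries. Without V23 the same sign was found for 52.7% of genes and the correlation was 0.09, so the negative value rests on V23. The 565 female genes that were lower past the cutoff had a median male log2 fold change of 0.15, and the 207 that were higher had one of -0.04. Of these 772 genes 190 had the same sign in males. Groups without overlap in both sexes were found for 243 genes with opposite directions and for 82 with the same direction. In females alone the groups did not overlap for 23% of genes, 10.5% higher and 12.5% lower.

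**Figure D3:**
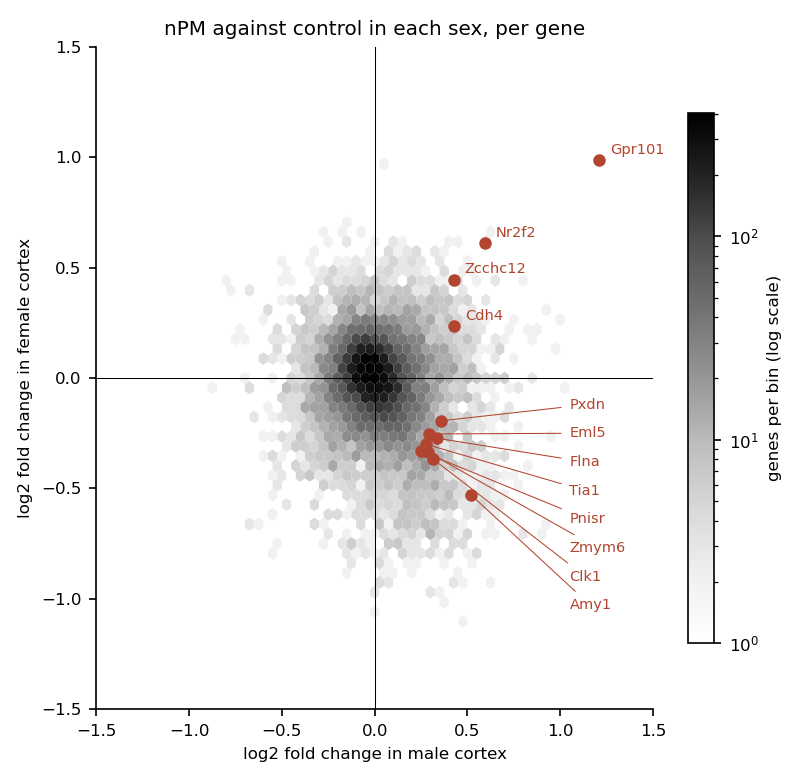
Log2 fold change after nPM in male (horizontal) and female cortex (vertical) for genes kept in both sexes and within 1.5 on both axes, binned, with a log grey scale for the number of genes. The 12 genes past the unadjusted cutoff in both sexes are marked, 4 in the upper right and 8 in the lower right quadrant.

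In blood of male neonates, with 3 nPM and 3 control libraries, 17 of 5789 genes had an unadjusted p under 0.005 (0.294%) and 0 passed the adjusted cutoff of edgeR (207 at an unadjusted p under 0.05, 3.58%). Of the 41 cortex genes 14 were kept in blood, and none of these 14 was past 0.005 there, while 8 had the same sign. Only Gm26461 was under 0.05, with a log2 fold change of -1.02 in blood and -0.96 in cortex (unadjusted edgeR p of 0.0130 in blood). In female cortex Gm26461 went the other way, at 0.52 (SE 0.16, unadjusted edgeR p of 0.00748). Its unadjusted DESeq2 p in male cortex was 0.00909, outside the cutoff.

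The gene lists that follow were described by counts and medians, with no test of a list. Over all genes tested the median log2 fold change was 0.00, with 8653 above 0 and 8435 below. Of 26 genes of cortical excitatory neurons 7 lay above and 19 below 0, with a median of -0.03. That median was 0.04 without V14 and -0.12 without V24. Bcl11b, which was higher after nPM, was the only member past 0.005. Of 12 caudal interneuron genes 6 lay above and 6 below 0, with a median of 0.01. Nr2f2 and Adarb2 were past 0.005, and Reln and Calb2, markers of interneurons, had log2 fold changes of 0.20 and 0.38 (unadjusted edgeR p of 0.0214 and 0.0472), while Cck was at -0.47 (unadjusted edgeR p of 0.00577). Calb2 was at 0.24 without V14 and Cck at -0.27 without V24. Of 11 genes of medial interneurons, such as Sst, none was under 0.05. Of 13 genes of GABA synthesis and transport 12 lay above 0, with a median of 0.11, which was 0.03 without V14. Gad1, the GABA-making decarboxylase, was at 112, 129 and 104 CPM after nPM and 82.3, 82.4 and 102 CPM in controls (log2 fold change 0.28, unadjusted edgeR p of 0.0239). Its groups did not overlap, with control V24 close to nPM library V23, and without V14 its log2 fold change was 0.16.

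The medians of regions next to the cortex ranged from 0.01 for hippocampus, with 6 of 11 genes above 0, to 0.51 for striatum. Of the 11 hippocampal genes 3 were higher at an unadjusted edgeR p under 0.05 (2.45% of all genes tested). Nrp2, also on this list, was past 0.005. Summed levels did not overlap for hippocampus, at 498 to 540 CPM after nPM and 406 to 449 CPM in controls. Nor did they for thalamus, at 241 to 266 CPM and 213 to 229 CPM. Of 13 hypothalamus and amygdala genes 9 lay above 0, with a median of 0.43 in males and 0.45 in females, and Gpr101 and Zcchc12 were past 0.005. Both medians were the value of Zcchc12 itself, a gene named because it led the comparison of both sexes together. Baiap3, a member involved in vesicle traffic, was at 9.61, 15.5 and 12.8 CPM after nPM and 6.69, 6.04 and 9.71 CPM in controls (log2 fold change 0.67, unadjusted edgeR p of 0.0244), with V13 just under control V24 and a log2 fold change of 0.39 without V23, whereas Trh, the thyrotropin-releasing hormone precursor, was lower at -0.41 (unadjusted edgeR p of 0.0305). The summed level of the list was 202, 266 and 224 CPM after nPM and 158, 161 and 192 CPM in controls, without overlap. Zcchc12 made up much of this sum, at 82.7, 104 and 85.2 CPM after nPM and 60.8, 64.4 and 71.0 CPM in controls. The separation of the groups is therefore not shown for the list without Zcchc12. Of the 23 listed genes 1 was at 0 in all 6 libraries. The part of these regions in Nr2f2, Nrp2, Gpr101 and Zcchc12 was not tested.

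Of 15 striatal genes 14 lay above 0, with a median of 0.51. Drd1, the dopamine D1 receptor, was at 38.7, 45.4 and 40.6 CPM after nPM and 26.5, 36.7 and 36.5 CPM in controls (log2 fold change 0.37, unadjusted edgeR p of 0.0333). Penk, the enkephalin precursor, was at 38.4, 45.1 and 38.2 CPM after nPM and 6.18, 21.6 and 30.9 CPM in controls. In both genes V14 was lowest, and the median of the list was 0.13 without V14 and 0.85 without V24. Without V14 the log2 fold change of Drd1 was 0.17. Of 11 thalamic genes all 11 lay above 0 with a median of 0.26, which was 0.09 without V14 and 0.40 without V24, and Lhx9, Zfhx3 and Calb2 were under 0.05. The summed level of the striatal list did not overlap between the groups, at 667 to 792 CPM after nPM and 375 to 642 CPM in controls, and its part in Bcl11b, which striatal neurons also express, was not tested. Medians of choroid plexus (0.30), meninges (0.18) and endothelium (0.11) genes turned negative without V14. Ttr, the abundant choroid plexus transcript, was at 391, 377 and 224 CPM after nPM and 27.0, 362 and 302 CPM in controls.

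Most genes of dividing cells lay above 0, but the summed levels of their lists overlapped between the groups. Of 24 G2/M genes 23 lay above 0, with a median of 0.28, which was 0.11 without V14 and 0.58 without V23. Their summed level was 263, 278 and 243 CPM after nPM and 188, 281 and 214 CPM in controls, with control V16 highest. Kif20a, a mitotic kinesin, was at 6.25, 6.20 and 6.53 CPM after nPM and 3.83, 5.78 and 5.27 CPM in controls (log2 fold change 0.46, unadjusted edgeR p of 0.0430). Top2a was at 41.6, 44.3 and 38.4 CPM and 26.5, 43.1 and 33.4 CPM, with overlap. Without V14 the log2 fold change of Kif20a was 0.26, and no member was past 0.005. Of 14 radial glia and progenitor genes 12 lay above 0, with a median of 0.13, which was 0.02 without V14 and 0.31 without V23. The summed level of the 16 listed genes was 1310, 1429 and 1362 CPM after nPM and 1201, 1397 and 1164 CPM in controls.

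Microglia, interferon, oligodendrocyte and astrocyte lists had medians below 0. Of 24 microglia genes 21 were below 0, with a median of -0.14. Tyrobp, an adaptor of microglial receptors, was at 11.3, 11.3 and 7.72 CPM after nPM and 11.1, 8.79 and 13.8 CPM in controls (log2 fold change -0.42, unadjusted edgeR p of 0.0172), and C1qa, a complement subunit, at 18.96, 18.1 and 15.1 CPM against 19.5, 15.01 and 23.7 CPM (log2 fold change -0.35, unadjusted edgeR p of 0.0181). In both V24 was highest, and without V24 the log2 fold change of C1qa was -0.21 and the median of the list 0.08. Of 24 interferon response genes 20 were below 0, with a median of -0.29 that was -0.01 without V24. H2-K1, a class I antigen-presenting molecule, was at 6.12, 5.76 and 5.08 CPM after nPM and 5.46, 5.25 and 16.02 CPM in controls, and its log2 fold change was -0.92, and -0.03 without V24. The inflammatory cytokine genes Il1b, Il6 and Tnf were at 0.398 CPM or less in every library and were not tested. Of 19 oligodendrocyte genes 14 were below 0, with a median of -0.31, and 0.25 without V24, where Mobp, a myelin protein, was at 50.3 CPM against 3.57 to 12.6 CPM in the other 5. Astrocyte genes had a median of -0.08 and 0.07 without V24.

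Nuclear subunits of oxidative phosphorylation and ribosomal proteins had medians below 0 in males and above 0 in females, which did not hold for the 12 protein genes of the mitochondrial genome (6 above and 6 below 0 in males, medians of 0.00 in males and -0.12 in females). Of 78 nuclear subunits of oxidative phosphorylation 75 lay below 0, with a median of -0.11 in males and 0.11 in females. In males 14 had an unadjusted p under 0.05, all lower (1.87% of all genes tested), and none was past 0.005. Ndufb9, a complex I subunit, was at 117, 115 and 109 CPM after nPM and 125, 113 and 135 CPM in controls (log2 fold change -0.20, unadjusted edgeR p of 0.0142). Ndufb8 was at 95.6, 90.7 and 85.9 CPM and 101, 91.5 and 103 CPM (log2 fold change -0.18, unadjusted edgeR p of 0.0145). For both, control V16 fell within the nPM range, and the groups did not overlap for only 2 of the 78 genes. Without RIN the median was -0.06. Of 83 cytosolic ribosomal protein genes 73 lay below 0, with a median of -0.08 in males and 0.16 in females, and 14 were lower without overlap (4.56% of all genes tested). Fau was past 0.005, and Rpl23a was at 80.5, 75.9 and 75.7 CPM after nPM and 91.2, 88.0 and 85.6 CPM in controls (log2 fold change -0.20, unadjusted edgeR p of 0.0131). With 1 male library left out the ribosomal median ran from -0.14 (without V24) to -0.03 (without V23), and that of oxidative phosphorylation from -0.17 (without V23) to -0.07 (without V24).

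**Figure D4:**
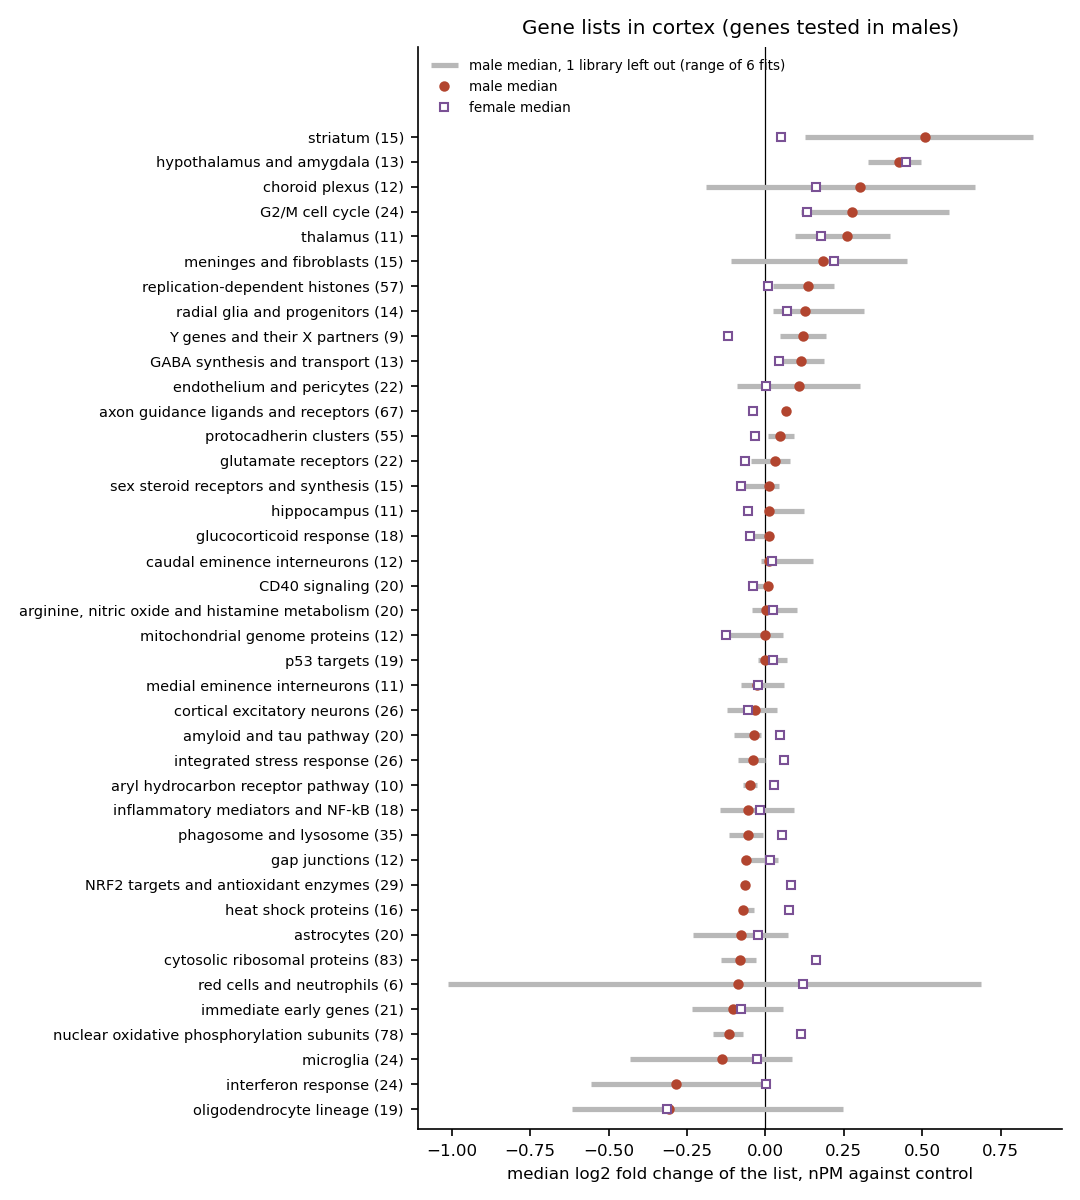
Median log2 fold change after nPM of gene lists (rows, with the number of genes tested in males) in male and female cortex; the grey bar spans the male medians with each of the 6 libraries left out. Striatum, choroid plexus and glial lists have wide bars, while oxidative phosphorylation and ribosomal proteins stay below 0 in males and lie above 0 in females.

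No gene of the oxidative stress and aryl hydrocarbon receptor lists was past 0.005, and Prdx5, the peroxiredoxin among the 41 genes, was not on these lists. Of 29 NRF2 targets and antioxidant enzymes 22 lay below 0, with a median of -0.07. Gpx4, a lipid peroxide reductase, was at 112, 122 and 116 CPM after nPM and 148, 109 and 173 CPM in controls (log2 fold change -0.42, unadjusted edgeR p of 0.0104), against 0.38 in females. Srxn1, a sulfiredoxin, was at 36.2, 35.4 and 34.5 CPM and 41.3, 34.7 and 44.8 CPM (log2 fold change -0.27, unadjusted edgeR p of 0.0118). The groups of both overlapped, and Gpx4 was at -0.26 without V24 and -0.74 without V23. Hmox1 and Nqo1, classical NRF2 targets, were at 3.41 to 4.89 and 2.28 to 3.36 CPM after nPM and at 2.81 to 3.74 and 2.56 to 2.86 CPM in controls. Of 10 aryl hydrocarbon receptor pathway genes 4 lay above and 6 below 0. The receptor Ahr was at 18.4, 18.5 and 19.6 CPM after nPM and 21.8, 18.3 and 19.1 CPM in controls. Its target Cyp1a1 did not reach 10 counts in every library, at 0.129 to 0.494 CPM after nPM and 0.276 to 0.651 CPM in controls. Medians of p53 targets, heat shock proteins, the integrated stress response, glucocorticoid response genes and sex steroid genes lay between -0.07 and 0.01, with none of their members past 0.005.

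Of 67 ligands and receptors of axon guidance 47 lay above 0, with a median of 0.07. Besides Nrp2 and Ephb6, Ntn1, which encodes netrin-1, was at 13.6, 16.5 and 14.5 CPM after nPM and 8.21, 11.5 and 12.4 CPM in controls (log2 fold change 0.50, unadjusted edgeR p of 0.0307), and Plxnc1, a plexin, at 90.1, 89.0 and 95.3 CPM against 86.0, 79.3 and 77.2 CPM (log2 fold change 0.19, unadjusted edgeR p of 0.0271). Neither overlapped, and the log2 fold change was 0.27 for Ntn1 without V14 and 0.11 for Plxnc1 without V23. Of 22 glutamate receptor genes Grik2 was past 0.005 and Grik1, a further kainate receptor subunit, was at 0.23 (unadjusted edgeR p of 0.0231), and at 0.10 without V23 (unadjusted edgeR p of 0.418). Of 12 gap junction genes Gja5, a connexin of arteries, was higher at 0.99 (unadjusted edgeR p of 0.0154) from 1.35 to 1.64 CPM after nPM and 0.579 to 1.01 CPM in controls. Medians of immediate early genes, phagosome and lysosome, CD40 signaling, amyloid and tau, arginine and histamine metabolism, replication-dependent histones and protocadherin genes lay between -0.10 and 0.13, with no member past 0.005. Of 9 Y genes and X partners 8 lay above 0. The smallest p was that of the histone demethylase Kdm5d, which was at 39.3, 42.0 and 42.9 CPM after nPM and 36.1, 39.7 and 32.5 CPM in controls (log2 fold change 0.27, unadjusted edgeR p of 0.00883), and V13 lay below control V16.

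The number of genes past 0.005 varied with the libraries and filters used. It was 24 to 169 when 1 library was left out, lowest without V15 and highest without V14, where 145 of the 169 were higher. Without RIN it was again 41, of which 17 were among the 41 genes named here.

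**Figure D5:**
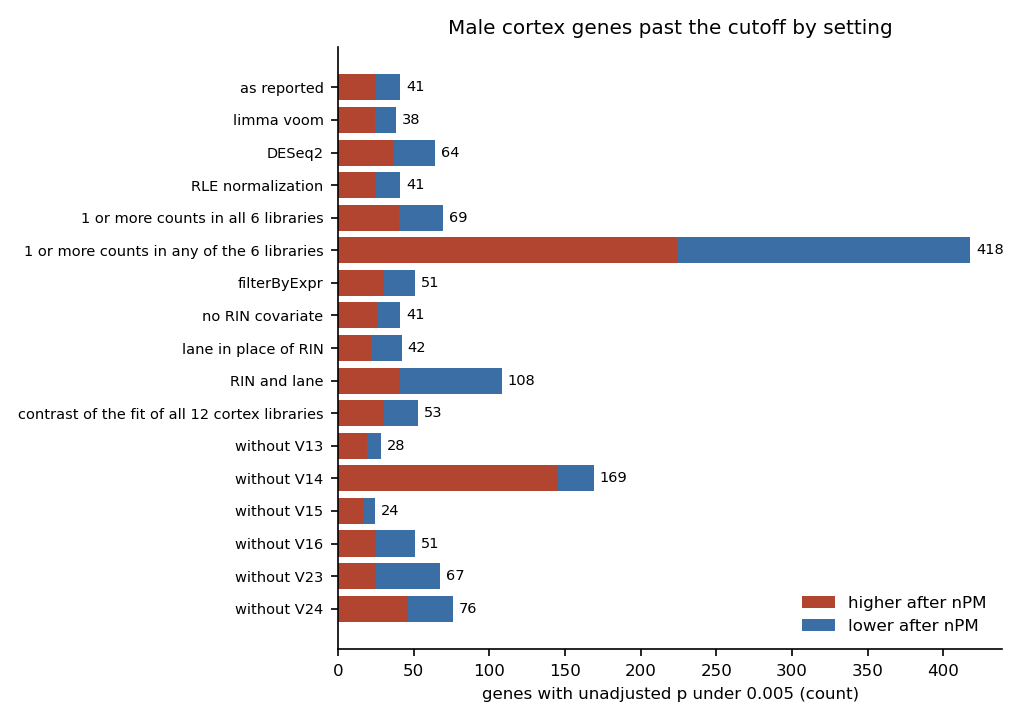
Number of genes with an unadjusted p under 0.005 in male cortex (horizontal axis) for each setting, split into higher and lower after nPM. Counts lie between 24 and 169 except for the filter of 1 count in any library, where 418 genes passed.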

How the data were processed

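RNA-seq libraries were made by the authors with the RiboZero Gold kit from dissected cortex. Per the methods and the processing notes, the authors trimmed reads with Trimmomatic where needed, used HISAT2 for alignment to mm10, and took gene counts with featureCounts 1.5.0-p3 and the Gencode M11 annotation. The deposited table holds raw counts per gene without normalization. A deposited gene table gives positions, types and lengths, and its mean RPKM values were not used.

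From the counts, edgeR 4.0.16 (R 4.3.3) with TMM normalization and RIN as covariate was fitted per sex, on genes with 10 or more counts in all 6 libraries. The exposure-by-sex term was fitted over 12 cortex libraries. Tests were two-sided. The cutoff was 0.005 for unadjusted p-values and 0.05 after adjustment. Named genes were the 12 higher and 12 lower protein-coding genes with the smallest p, 3 of other types, list members past 0.005, list examples with the smallest p, the 4 that led the comparison of both sexes together, the Y genes as a check of the sex labels, and the 5 leading the interaction. Of the 12 lower genes, Mrpl41 and Aldh1a7 were outside 0.005, with overlap between the groups. Their log2 fold changes were -0.25 and -0.96 (unadjusted edgeR p of 0.00515 and 0.00520). Other genes past 0.005 were named after their values were seen. The comparison, the gene lists and the named genes were chosen with earlier results of these data known. Alternatives were limma 3.58.1 (voom), DESeq2 1.42.0, RLE normalization, other filters, covariates and leaving out each library. The scripts were tested on simulated counts. A count of 0 allows up to 3 counts, 0.0887 to 0.106 CPM in these libraries, for counting error only. The p-values measure the spread between these pups. One gene list and single members of others are not reported here.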

Additional observations from a re-analysis of the deposited data

Results flagged for a closer look

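For 6 of the named genes every nPM library lay on one side of the controls in males and on the opposite side in females. Among the 16660 genes kept in both sexes, 243 were separated in this opposite way. The named genes were chosen largely by their male or exposure-by-sex p, so the count of 6 is a description. The male minus female difference of log2 fold changes was 0.63 for Clk1 (SE 0.10, adjusted edgeR p of 0.133), 0.50 for Pxdn (SE 0.10), -0.46 for Fau (SE 0.08), -0.26 for Prdx5 (SE 0.09), 0.57 for Zmym6 (SE 0.11) and 1.00 for Amy1 (SE 0.16, adjusted edgeR p of 0.163). None of the 6 passed an adjusted p of 0.05 for the exposure-by-sex term of edgeR. With DESeq2 the adjusted p was 3.9e-05 for Clk1, 0.00053 for Amy1, 0.0103 for Pxdn and 0.0129 for Zmym6. Fau also passed the adjusted cutoff of DESeq2, and Prdx5 did not. Leaving out each of the 12 cortex libraries gave a difference of 0.58 to 0.70 for Clk1 and 0.89 to 1.18 for Amy1. Groups of 3 libraries were not searched for single outlying values.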

How the results depend on the processing

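Of the 109 genes recomputed under each alternative none changed sign, while some genes named as examples, such as Ttr, Penk, Top2a and Mobp, were not recomputed. Of the alternative values, 1434 kept their side of the cutoff, 246 fell short of it and 63 passed it. No paired analysis was possible because the labels number the libraries consecutively and give no replicate number shared between the groups. As reported, 41 genes passed the unadjusted cutoff, 25 of them higher, 0 passed the adjusted one, and 12 passed in both sexes, 4 with 1 direction. With DESeq2 64 genes passed, 3 of them adjusted (Actg1, Dchs2 and Hnrnpa3), and 7 of those in both sexes had 1 direction. With 1 count in all 6 libraries 69 passed, 40 of them higher. With 1 count in any library 418 passed, 224 of them higher and 155 adjusted, and 151 in both sexes, 70 with 1 direction. Without RIN 5 genes passed in both sexes, 3 with 1 direction. With lane in place of RIN 1 gene passed the adjusted cutoff (Rny1), and the share of higher genes was 52.4% in place of 61.0%. With RIN and lane 108 genes passed, 41 of them higher, 2 adjusted (Rny1 and Rpl17-ps8) and 19 in both sexes. With RIN and lane the share of higher genes was 38.0%.

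With 1 library left out, 24 (without V15) to 169 (without V14) genes passed, 17 to 145 of them higher. Adjusted were 0 to 3 (3 without V13, namely Gm10132, mt-Co2 and Rpl7a-ps11, and Rpl15-ps3 without V24). In both sexes 8 to 89 passed, 1 to 6 of these with 1 direction. The 89 were found without V14, where 2 of them had 1 direction and the Spearman correlation of the sexes was -0.22. The number of genes past the cutoff was 67 without V23, 25 of them higher, and 76 without V24. The share of higher genes ran from 37.3% without V23 to 85.8% without V14. The exposure-by-sex term had 132 (without V23) to 361 genes past the unadjusted cutoff, with 0 adjusted in each, and 64 adjusted with DESeq2. The medians of 20 of the 41 gene lists kept their sign without RIN, with RLE and with each library left out, and those of 21 did not. The median log2 fold change of all genes was 0.0025 with RLE and 0.0021 as reported. With 3 libraries per group the median SE of 0.128 limits what could be seen. The cause of these changes was not tested.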

Other observations

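The filter of 10 counts in all 6 libraries left out genes that were counted mainly in 1 group. In all, 557 genes reached 10 counts in every nPM library but not in every control, and 360 the reverse, and none of either set was at 0 throughout the other group. Six3os1, an antisense transcript next to the forebrain homeobox gene Six3, had 50, 84 and 48 counts in V13, V15 and V23 and 5, 25 and 22 counts in V14, V16 and V24. Gpr174, a receptor gene of lymphocytes, had 13, 11 and 17 counts after nPM and 0, 3 and 3 in controls, near the limit that a count of 0 allows. The lincRNA gene Gm12063 had 33, 35 and 29 counts after nPM and 9, 16 and 11 in controls. The snRNA gene Gm23143 had 3, 4 and 4 counts after nPM and 10, 10 and 16 in controls. These genes were chosen after their values were seen, as those with the largest gap between the groups among genes left out, and they were not tested.

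The haemoglobin transcript Hbb-bs, carried by red cells, was higher in both libraries of lane 3 than in the 4 of lane 2. It was at 148 and 154 CPM in the nPM libraries of lane 2 and 387 CPM in that of lane 3, and at 197 and 269 CPM and 395 CPM in the controls of the same lanes.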
